A study of Mus musculus with 10 samples.

Results

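Programmed cell death by apoptosis is carried out by caspases, cysteine proteases that cut their substrates after aspartate and that lie idle in healthy cells as inactive precursors. The 8 genes described here encode 5 caspases (Casp2, Casp6, Casp8, Casp9 and Casp12), the adaptor Apaf1 and the inhibitor-of-apoptosis (IAP) family members Xiap and Birc5. They were taken by name as a fixed list, chosen with earlier results of these data known, and all 8 were in the deposited table of 18901 genes and among the 17075 genes that passed the filter on low values. RNA was sequenced from 5 mouse lines, all from a cross of mf1 and 129: Oct4-GFP mouse embryonic fibroblasts (MEF), 1 partially reprogrammed pre-iPS line, 1 'control' line of induced pluripotent stem (iPS) cells and 2 iPS clones called 'rNetrin-1 derived'. Reprogramming was by retroviruses for Oct4, Sox2, Klf4 and c-Myc, and the clones were derived with recombinant Netrin-1, a secreted ligand that limits cell death signalled by its dependence receptors. In pre-iPS cells the GFP reporter was off and the retroviral factors were still expressed. MEF were sampled at passages 2 and 4, the other lines at passages 5 and 25.

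Each line was 1 culture or 1 clone, so its 2 libraries were passages of the same line, and a p compares lines and passages and not independently derived clones. MEF were grown in serum and the iPS cells in serum replacement with LIF, so line and medium cannot be told apart in any comparison with MEF. For pre-iPS and iPS cells the study's methods name this medium with or without added inhibitors, and do not say which line had which. Values are normalized counts, read counts that the authors had scaled between libraries of 38110410 to 52946856 reads on genes. The totals were not equal after this scaling, at 56073322 and 55886953 in MEF and 39745507 to 41892877 in the other 8 libraries. Small differences with MEF therefore depend on how the libraries were scaled. A gene passed the test at an adjusted p under 0.05 in a limma fit over all genes, and was called where its difference was also at least 2-fold, a log2 difference of 1. Fibroblast markers marked the MEF: the 6 genes of the list summed to between 2796284 and 2939880.0 there and to between 16492 and 30776 in the other 8 libraries. Pluripotent markers summed to between 20305 and 46302 in the 6 iPS libraries, to 12361 and 12769 in pre-iPS and to 131 and 137 in MEF. The sum hides differences within the list, of which 4 genes were over 2-fold lower in pre-iPS than in iPS cells and 1 did not pass. Zfp42, at 6512 and 6101 in pre-iPS, lay within the iPS range of 2109 to 15153. Esrrb was at 31.6 and 15.4 in pre-iPS, 16.5 and 13.8 in MEF and at least 900.2 in iPS cells. The Y-linked gene Ddx3y was at 1478 to 1785 in control iPS and clone 1 and at 359 and 387 in MEF. It was at 1.98 and 0.887 in clone 2 and 1.02 and 1.92 in pre-iPS. The sex of the line therefore cannot be told apart from line or derivation where clone 2 or pre-iPS is compared with those lines.

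Apoptotic caspases fall into initiators, which are switched on by being brought together on a platform, and executioners, which the initiators cut and which then dismantle the cell. Caspase-8 is recruited by death receptors, caspase-9 by the apoptosome that Apaf1 forms once mitochondria release cytochrome c, and caspase-2 by the PIDDosome. Xiap holds active caspases in check by binding them, whereas Birc5 (survivin) works mainly in mitosis, in the chromosomal passenger complex with Aurora B. Caspase-6 is an executioner that cuts nuclear lamins, and caspase-12 has been linked to stress of the endoplasmic reticulum.

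All 8 members had a promoter window in the RefSeq set of 32851 windows on GRCm38.p6, the same assembly as the mm10 named in the processing notes. The 250 bases before the start in that set were read on the gene's strand. Across all windows the median was 6 CG dinucleotides, with quartiles of 2 and 16. Casp12 had 1 and Casp8 5, while Casp6 had 11, Casp2 17, Birc5 19, Casp9 25 and Apaf1 42, and Xiap had 3 windows with 13, 1 and 1. The windows of Casp8 (from 58802252) and Xiap (from 42068148, 42067586 and 42070992, in the same order) lay inside the GENCODE genes, which start at 58795374 and 42059679. For these 2 genes the bases before the GENCODE start were therefore not read. Apaf1 had 37 in the 223 bases of its window that lay outside its GENCODE gene. The letters GGGCGG, searched on both strands, occurred in 32.7% of all windows and in that of Casp2, Casp6, Casp9, Apaf1, Birc5 and 2 of the 3 of Xiap. They were not in those of Casp8 and Casp12. The windows of the members that were called between lines, Casp12 and Birc5, are shown beside that of Casp9, a CG-rich window of a member called in no comparison, with each CG in capitals. Casp12 lies at chr9:5345226-5345429 on the plus strand (204 bases, up to the start of the GENCODE gene), Birc5 at chr11:117848987-117849236 and Casp9 at chr4:141793362-141793611, both also on the plus strand.
Casp12: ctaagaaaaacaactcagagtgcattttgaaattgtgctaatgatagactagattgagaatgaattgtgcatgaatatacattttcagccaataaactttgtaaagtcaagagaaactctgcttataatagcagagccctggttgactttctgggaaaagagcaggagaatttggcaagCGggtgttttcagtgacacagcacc
Birc5: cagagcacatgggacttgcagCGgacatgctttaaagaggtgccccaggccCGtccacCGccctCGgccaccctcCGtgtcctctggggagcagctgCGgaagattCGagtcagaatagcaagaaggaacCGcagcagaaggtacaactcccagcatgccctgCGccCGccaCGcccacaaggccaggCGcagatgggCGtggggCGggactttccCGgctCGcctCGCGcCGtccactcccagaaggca
Casp9: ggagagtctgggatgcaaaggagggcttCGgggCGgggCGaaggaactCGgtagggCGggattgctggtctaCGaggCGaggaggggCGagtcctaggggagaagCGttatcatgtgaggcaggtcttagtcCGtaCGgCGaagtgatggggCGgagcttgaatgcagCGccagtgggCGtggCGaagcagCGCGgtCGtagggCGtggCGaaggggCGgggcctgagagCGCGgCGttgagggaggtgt
The Casp12 stretch holds a single CG, the Birc5 window 19 and the Casp9 window 25, and no measurement of binding or methylation was made in these libraries.

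**Figure D1:**
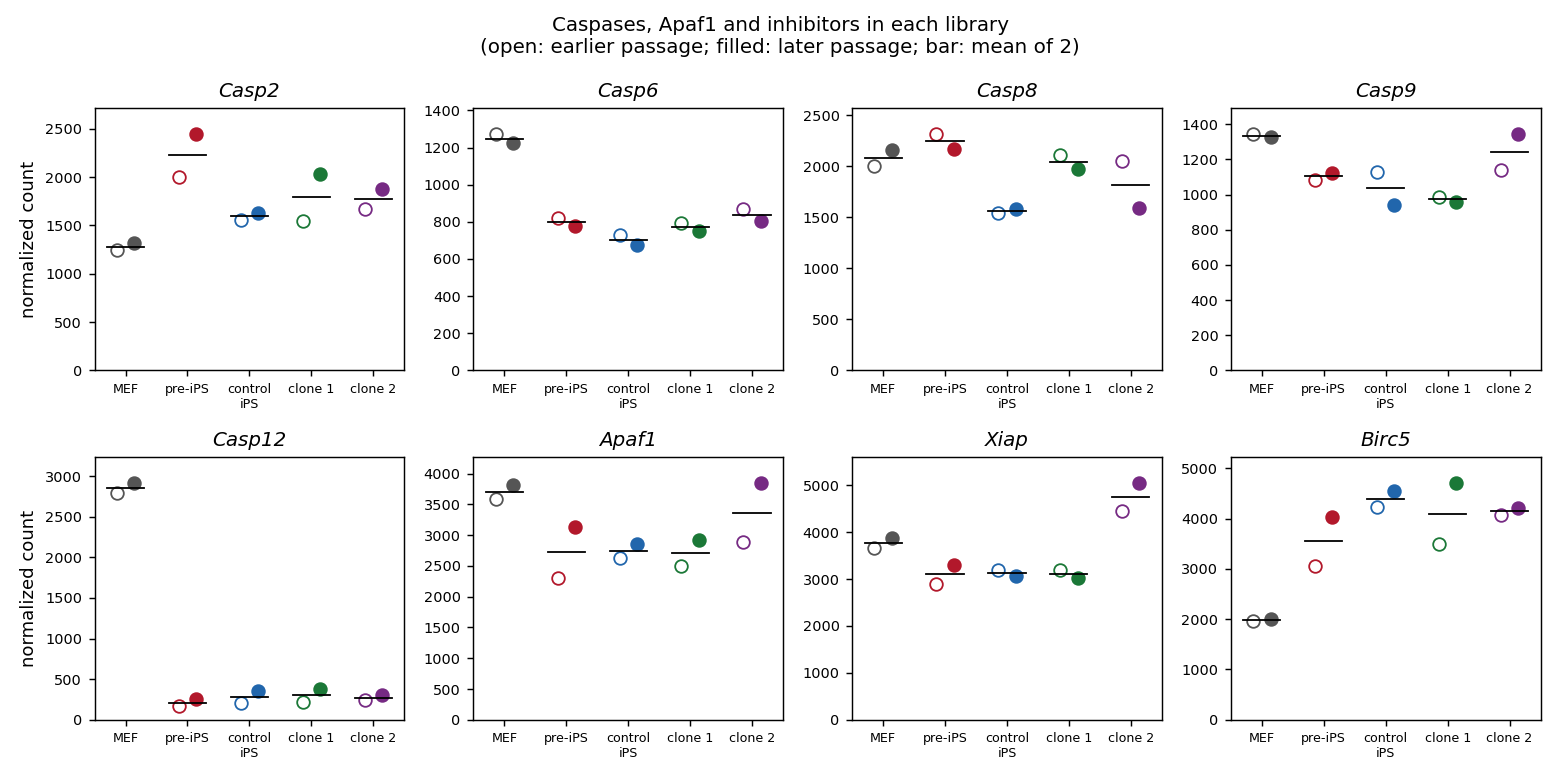
Normalized counts (y axis, from 0) of the 8 genes in each library, by line (x axis), with open points for the earlier and filled points for the later passage and a bar at the mean of the 2. Casp12 sits at 2786 and 2911 in MEF and between 172 and 374 elsewhere, Birc5 is lowest in MEF, and Xiap is highest in clone 2.

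Between MEF and the 3 iPS lines, Casp12 and Birc5 changed by more than 2-fold, in opposite directions, and 4 others changed by less. Casp12, Casp6, Casp9 and Apaf1 were higher in MEF, Birc5 and Casp2 were higher in iPS cells, and Casp8 and Xiap did not pass the test. The 2 called members stand beside a background of 48.2% of all genes called in this comparison. At an adjusted p under 0.05 alone, 4 of 8 were higher in MEF against 37.4% of all genes, and 2 of 8 lower against 41.9%. The median log2 difference was 0.27 over the 8 and -0.09 over all genes tested.

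Casp12 had the largest difference of the 8. The MEF libraries held 2786 and 2911 normalized counts, those of pre-iPS 172 and 253, control iPS 206 and 359.8, clone 1 224 and 374, and clone 2 238 and 306. Every MEF library was above every other, whereas the ranges of the other 4 lines overlapped. The level in MEF was 10.2-fold that in iPS cells (log2 difference 3.36 ± 0.27 SE, adjusted p = 4.46e-06, limma), and the exact permutation p over these 8 libraries was 0.0357, the smallest possible with 2 against 6. Read counts outside MEF were 169 to 364 per library, so Casp12 RNA was detected in all of them.

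The RNA of Casp12 outside MEF was 6.05 to 13.1% of the MEF mean. Fibroblast markers were also detected in these libraries, and the study's methods name irradiated MEF among the culture supports. Postn stood at 0.200 to 0.467% of MEF, Col3a1 at 0.363 to 0.702%, Col1a1 at 0.441 to 0.998% and Col1a2 at 0.750 to 1.30%. Thy1 stood at 7.25 to 11.1% and Twist2, a mesenchymal transcription factor, at 18.0 to 38.6%. Casp12 thus lay above the 4 matrix genes and overlapped the range of Thy1. The part of feeder or residual fibroblast RNA in these values was not tested, and in bulk samples fewer cells of a type and less RNA per cell cannot be told apart. The MEF libraries held macrophage markers too: Lyz2 was at 6824 and 6951 there and at 2.88 to 10.9 elsewhere, and the 6-gene list summed to 12026 and 12098 in MEF and to 567 to 1896 in the other 8. Of the 6, 5 were higher in MEF than in iPS cells and 1 did not pass. Cd68, which is counted in these sums, was at 767 and 715 in MEF, 1565 and 853 in pre-iPS and 354 to 1124 in iPS cells. The part of macrophage RNA in the MEF values was not tested either.

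**Figure D2:**
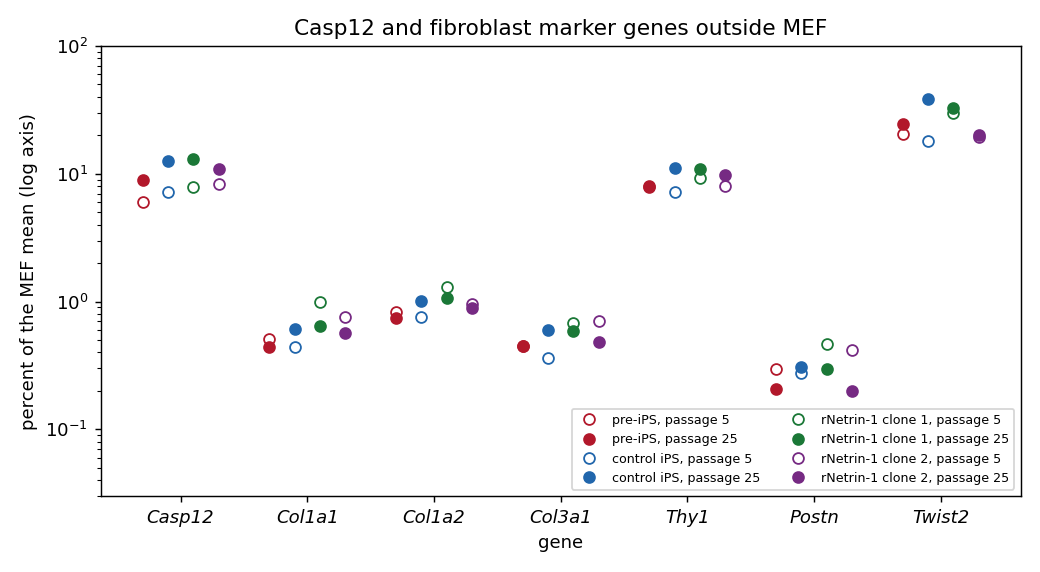
Level of Casp12 and of 6 fibroblast marker genes in each pre-iPS and iPS library, in percent of the mean of the 2 MEF libraries (log axis), open at passage 5 and filled at passage 25. Casp12 lies between 6.05 and 13.1%, above Col1a1, Col1a2, Col3a1 and Postn, level with Thy1 and below Twist2.

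Among the initiators, Casp2 went the other way from Casp9. For Casp2 the MEF libraries held 1241 and 1317 normalized counts, pre-iPS 2002 and 2448, control iPS 1559.7 and 1633, clone 1 1548 and 2032, and clone 2 1665 and 1880.0. The MEF libraries were below all others, and the level was 1.34-fold higher in iPS cells than in MEF (log2 difference of MEF minus iPS -0.42 ± 0.12 SE, adjusted p = 0.0107). Without the first MEF library the adjusted p was 0.0867.

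Casp9 stood at 1343 and 1328 in MEF and between 939 and 1346 in the 6 iPS libraries, whose highest, clone 2 at passage 25, reached the MEF level. The model gave 1.24-fold higher in MEF (log2 difference 0.31 ± 0.10 SE, adjusted p = 0.0163), and under quantile normalization of the log2 values the adjusted p was 0.138. Without the first MEF library it was 0.0972 and without the second 0.0833. The genes Cela2a and Ctrc share 94 exonic bases with Casp9 on the opposite strand, and the library kit does not mark strand. Casp8 was at 2005 and 2163 in MEF and at 1539 to 2107 in iPS cells, and its log2 difference of 0.22 ± 0.10 SE had an adjusted p of 0.0705. Without clone 2 at passage 5 it was 0.28 with an adjusted p of 0.00708.

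Casp6, the executioner of the list, was higher in MEF with no overlap. It had 1274 and 1223 normalized counts in the MEF libraries, 819 and 777 in pre-iPS, 728 and 676 in control iPS, 791 and 753 for clone 1 and 868 and 805 for clone 2. The difference was 1.62-fold (log2 0.70 ± 0.08 SE, adjusted p = 5.04e-05), with the smallest exact permutation p of 0.0357. Apaf1 was at 3585 and 3811 in MEF and at 2501 to 3842 in iPS cells, where clone 2 at passage 25 was above both MEF libraries. Its log2 difference of 0.34 ± 0.14 SE was just under the threshold in limma (adjusted p = 0.0485) and missed it with edgeR on recovered reads (adjusted p = 0.0512). Without the first or the second MEF library the adjusted p was 0.121 and 0.217, without one or the other control iPS library 0.0869 and 0.0614, without clone 1 at passage 5 0.0873 and without clone 2 at passage 5 0.0777. It was also lost with only genes of a mean of at least 50 units (adjusted p = 0.0501) and under quantile normalization (0.09, adjusted p = 0.607).

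Of the inhibitors, Birc5 rose from MEF to iPS cells and Xiap did not pass the test. The MEF libraries held 1972 and 2012 normalized counts of Birc5, pre-iPS 3056 and 4037, control iPS 4238 and 4555, clone 1 3495 and 4700.1, and clone 2 4074 and 4214. Both MEF libraries were below the other 8, and the ranges of pre-iPS and of the 6 iPS libraries overlapped. The level in iPS cells was 2.11-fold that in MEF (log2 difference of MEF minus iPS -1.07 ± 0.13 SE, adjusted p = 6.06e-05). Xiap was at 3664 and 3885 in MEF and at 3014 to 5042 in iPS cells (log2 difference 0.07 ± 0.08 SE, adjusted p = 0.395), and that difference was -0.18 (adjusted p = 0.0669) under quantile normalization.

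The partners of Birc5 and other mitotic genes were higher in iPS cells as well. In the chromosomal passenger complex all 4 genes, Birc5 among them, were higher in iPS cells, with a median log2 difference of -1.33 for MEF minus iPS. Cdca8 (borealin), Aurkb (Aurora B kinase) and Incenp, the scaffold of the complex, had -1.71, -1.36 and -1.30. All 6 mitotic and proliferation genes were also higher in iPS cells, 4 of them by over 2-fold and with a median of -1.32, led by Bub1, a spindle checkpoint kinase, at -1.99 and Ccnb1 (cyclin B1) at -1.92. Over all genes tested, 41.9% were higher in iPS cells at an adjusted p under 0.05 in the limma fit, and 48.2% were called in either direction. The part of cell division rate in the Birc5 values was not tested.

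**Figure D3:**
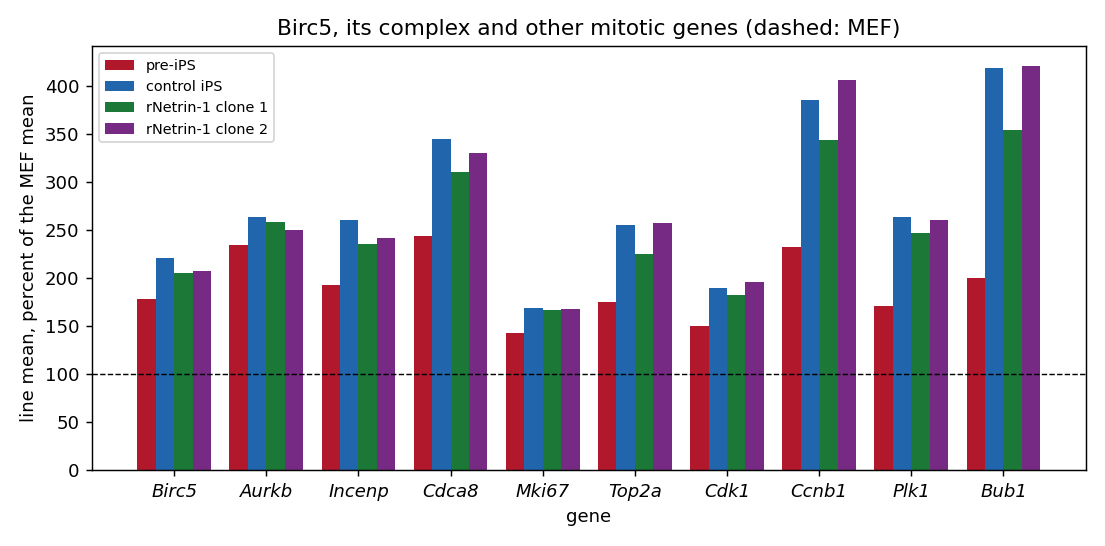
Line means (2 libraries each) of Birc5, of the other 3 passenger complex genes and of 6 mitotic genes, in percent of the MEF mean (bars from 0, dashed line at the MEF mean). All bars lie above the dashed line, with Birc5 at 178% in pre-iPS and 206 to 221% in the iPS lines.

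Around the initiators, the other genes of the caspase-8 death receptor complex stood higher in MEF. Of the 8 genes of the death receptor complex, Casp8 among them, 7 were higher in MEF, 5 of them by over 2-fold. Casp8 itself was the one that did not pass, and the list median was 1.21. Over all genes tested, 37.4% were higher in MEF and 48.2% were called in either direction. Tnfrsf1a, the main TNF receptor, had a log2 difference of 2.79, the death receptor Fas 2.64, and Ripk1, a kinase of the receptor complexes, 1.59. Fas normalized counts were 1703 and 1713 in MEF and 209.8 to 359.6 in iPS cells. The list also holds an inhibitor, Cflar, at 3409 and 3492 in MEF and 1395 to 1632 in iPS cells. In the apoptosome list, Apaf1 and Casp9 were higher in MEF while Cycs (cytochrome c) at -0.82 and Aven, an inhibitor of Apaf1, at -0.34 were lower, and the median was -0.02. Cradd, the adaptor that joins caspase-2 to the PIDDosome, was lower in MEF like Casp2 (-0.51).

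Other genes of the caspase and IAP families were compared in the same fit, in which 37.4% of all genes tested were higher in MEF and 41.9% lower. Casp1, Casp4 and Casp12 lie side by side on the plus strand of chromosome 9 (5298517 to 5373032, GENCODE on GRCm38). The inflammatory caspase Casp1 was higher in MEF by 0.75 (adjusted p = 0.0207) at normalized counts of 56.0 and 63.2, and Casp4 had -0.25 (adjusted p = 0.533). Casp14, a caspase of skin differentiation, had at most 39 reads in any library and -0.44 (adjusted p = 0.354). Of the 10 IAP genes 1 was higher in MEF, Birc3 at 0.82, and 5 were lower: Birc5, Birc2 (-0.43), Naip6 (-0.99), Birc7 and Naip1. The last 2 had 1 and 0 reads and 2 and 0 reads in MEF, so their fitted differences depend on the pseudocount and are not given. Naip6 was also low in MEF, with 4 and 14 reads. The Naip genes are near-identical copies, and how reads matching several of them were counted is not given in the sources used here. Among 4 IAP antagonists, Diablo, which displaces IAPs from caspases, was lower in MEF (-0.58) and the other 3 did not pass. Of 10 caspase substrates 5 were higher in MEF and 2 lower, with Gsn (gelsolin) at 2.31 and Gsdmd (gasdermin D) at 1.05 in one direction and Parp1 at -2.06 and Lmnb1 (lamin B1) at -1.91 in the other. Of the 5 inflammasome genes Il1b did not pass the filter, Nlrp3 was higher (2.26), and Pycard (-3.00) and Nlrc4 (-2.84) were lower. Nlrc4 had 8 and 16 reads in MEF.

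Pre-iPS cells were next compared with iPS cells, to ask whether the members separate partial from full reprogramming. None of the 8 was called by limma, against 16.3% of all genes, none was called by edgeR, and 3 had an unadjusted p under 0.05. At an adjusted p under 0.05 alone 2 of 8 were higher in pre-iPS (18.7% of all genes) and 0 were lower (20.8%), and edgeR on recovered reads also passed 2. The median log2 difference was -0.04 over the 8 and 0.00 over all genes. Of all genes called here, 28.9% were higher in pre-iPS on the deposited scale and 51.0% under quantile normalization, and the small differences of Casp6 and Casp9 turned sign with it (-0.005 and -0.04).

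Casp2 and Casp8 were the 2 that passed. Casp2, at 2002 and 2448 in pre-iPS against 1548 to 2032 in iPS cells, was 1.29-fold higher with an overlap (log2 0.37 ± 0.12 SE, adjusted p = 0.0387), and under quantile normalization 0.32 (adjusted p = 0.0935). Without pre-iPS at passage 25 it was 0.23 (adjusted p = 0.289), and the adjusted p was 0.0688 and 0.0573 without the first or the second control iPS library, 0.0655 without clone 2 at passage 5 and 0.0663 with only the lines compared in the fit. Casp8, at 2318 and 2168 in pre-iPS, was above all 6 iPS libraries and 1.25-fold higher (log2 0.32 ± 0.10 SE, adjusted p = 0.0308, exact permutation p = 0.143). Without pre-iPS at passage 5 it was 0.28 (adjusted p = 0.183), and the adjusted p was 0.0790 without pre-iPS at passage 25, 0.0550 without control iPS at passage 5, 0.0575 without clone 1 at passage 25 and 0.0552 with only the lines compared in the fit.

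The other 6 members did not pass. Casp12 had -0.41 ± 0.27 SE (adjusted p = 0.263) and Birc5 -0.26 ± 0.13 SE (adjusted p = 0.149), and with the passage as a replicate block these passed the test, at adjusted p of 0.0450 and 0.0486. Xiap had -0.21 ± 0.08 SE (adjusted p = 0.0588), which became -0.26 (adjusted p = 0.0312) under quantile normalization, -0.24 (adjusted p = 0.0335) without clone 2 at passage 5 and -0.31 (adjusted p = 0.0445) without pre-iPS at passage 25. Birc5 was also under the threshold without clone 1 at passage 5 (-0.33, adjusted p = 0.0467) and without pre-iPS at passage 25 (-0.46, adjusted p = 0.0499). Apaf1 had -0.11, Casp6 0.06 and Casp9 0.04. In the death receptor complex 6 of 8 were higher in pre-iPS (18.7% of all genes), Casp8 and Fas (0.61) among them. All 6 differed by less than 2-fold, and the list median was 0.36. Casp1 was called at 1.43 (adjusted p = 0.00237), at normalized counts of 107 and 86.4 in pre-iPS and 28.7 to 47.6 in iPS cells, and Birc6 passed at 0.26. Nlrc4, an inflammasome sensor that recruits caspase-1, had 729 and 915 in pre-iPS and 49.7 to 192 in iPS cells (3.04). Gsdmd, which caspase-1 cuts, was higher by 1.10, and Sept4, whose Arts form binds Xiap, was lower (-3.19), at 6 and 11 reads in pre-iPS. Of the 6 macrophage markers 2 were higher in pre-iPS, 0 were lower and 4 did not pass. Ptprc was among the 2, with 8 and 5 reads against 0 to 5, and Lyz2 stood at 5 and 3 reads. Normalized counts of Cd14 were 239.7 and 215 in pre-iPS and 103 to 188 in iPS cells, and those of Cd68 1565 and 853 against 354 to 1124.

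Against MEF, pre-iPS cells differed most in Casp12, and the libraries are shared with both comparisons above. Casp12 was the 1 member called (43.2% of all genes), and at an adjusted p under 0.05 Casp2 and Birc5 were higher in pre-iPS (2 of 8, 36.4% of all genes) and Casp6, Casp12, Apaf1 and Xiap lower (4 of 8, 34.2%). Casp12 was 13.6-fold lower (log2 -3.76 ± 0.33 SE, adjusted p = 1.20e-05). Casp2 was 1.73-fold higher (0.79 ± 0.15 SE, adjusted p = 0.00123) and Birc5 1.76-fold (0.82 ± 0.16 SE, adjusted p = 0.00153). Casp6 fell by 0.64 on the log2 scale (adjusted p = 0.000415), Apaf1 by 0.46 (adjusted p = 0.0393) and Xiap by 0.29 (adjusted p = 0.0238). Casp8 (0.11) and Casp9 (-0.27, adjusted p = 0.0679) did not pass. With only the lines compared in the fit Casp9 passed (adjusted p = 0.0172) and Apaf1 did not (adjusted p = 0.0717). Under quantile normalization Apaf1 and Xiap no longer passed (adjusted p of 0.252 and 0.490). Without the first or the second MEF library the adjusted p of Apaf1 was 0.0924 and 0.153 and that of Xiap 0.0570 and 0.135, and without pre-iPS at passage 5 they were 0.263 and 0.149. Without pre-iPS at passage 5, Birc5 was past 2-fold and 2 members were called. Single-gene permutation tests of 2 against 2 libraries cannot give a p under 0.333.

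**Figure D4:**
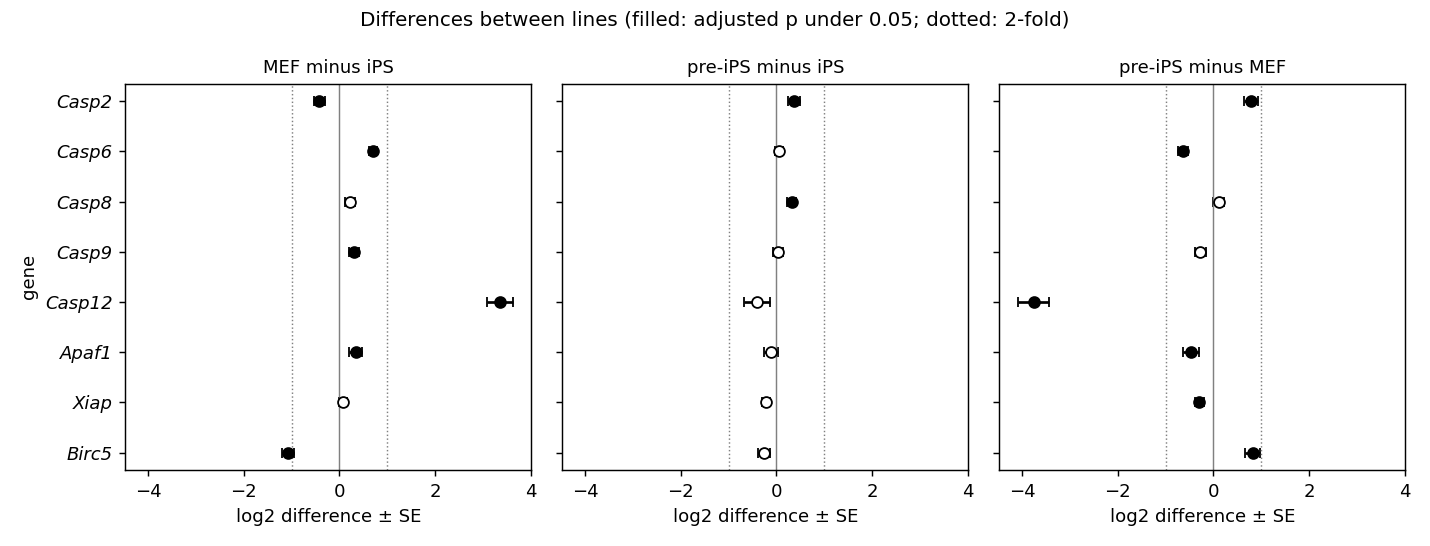
Log2 differences (x axis, ± SE of the limma fit) of the 8 genes in MEF minus iPS, pre-iPS minus iPS and pre-iPS minus MEF, filled where the adjusted p was under 0.05, with dotted lines at 2-fold. Casp12 at 3.36 and Birc5 at -1.07 lie beyond 2-fold in MEF minus iPS, Casp12 at -3.76 in pre-iPS minus MEF, and no member in pre-iPS minus iPS.

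The comparison of the rNetrin-1 derived clones with the control line asks whether the clones differ once established. Clone 2, unlike clone 1 and the control line, had almost no Y-linked Ddx3y RNA, so derivation and sex cannot be told apart for it. No member was called by limma in clones minus control (2.11% of all genes called), and none passed an adjusted p under 0.05 (4.08% of all genes). At an unadjusted p under 0.05 there were 2, Xiap and Casp8, and edgeR on recovered reads passed 0. Casp8 was at 1539 and 1584 in control iPS and at 2107, 1969, 2047 and 1587 in the clones, above the control in all 4 libraries (0.29 ± 0.11 SE, adjusted p = 0.186, exact permutation p = 0.133). Without clone 2 at passage 25 it was 0.39 (adjusted p = 0.0375). Casp6 was above the control in all 4 clone libraries as well (0.20 ± 0.09 SE, adjusted p = 0.288), and its exact permutation p of 0.0667 was the smallest that 4 against 2 libraries allow. Casp12 (0.04 ± 0.29 SE) had the widest error, and Casp2, Casp9, Apaf1 and Birc5 had between -0.10 and 0.15. The median was 0.14 over the 8 and -0.01 over all genes.

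Clone 1 alone had no member past either threshold (1.41% of all genes called and 2.48% at an adjusted p under 0.05). Casp8, at 0.38 ± 0.12 SE with an adjusted p of 0.154, was the 1 member with an unadjusted p under 0.05, and edgeR passed 0. Xiap had -0.01 ± 0.10 SE. In clone 2 no member was called by limma or edgeR (2.42% of all genes called), and 1 of 8, Xiap, was higher at an adjusted p under 0.05 (2.17% of all genes). Casp6 (0.25) was the other member with an unadjusted p under 0.05 and had an adjusted p of 0.224.

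By the adjusted p, Xiap was the 1 member that set clone 2 apart from the other iPS lines. Clone 2 held 4455 and 5042 normalized counts of it, clone 1 3198 and 3014, control iPS 3186 and 3062, and pre-iPS 2890.1 and 3306. The clone 2 libraries were above the other 8, MEF included. Casp9 and Casp6 in clone 2 were also above all libraries of control iPS and clone 1. Against those 4 libraries the exact permutation p was 0.0667 for Xiap and Casp9, the smallest possible, and 0.133 for Casp6. Xiap was 1.52-fold higher in clone 2 than in the control line (log2 0.60 ± 0.10 SE, adjusted p = 0.0144) and 1.53-fold higher than in clone 1 (0.61 ± 0.10 SE, adjusted p = 0.0274). Clone 2 minus clone 1 called no member with limma or edgeR (0.966% of all genes), Xiap was the 1 of 8 higher at an adjusted p under 0.05 (1.12% of all genes), and Casp9 (0.35) was the other with an unadjusted p under 0.05. With only the lines compared in the fit the adjusted p was 0.111 against the control and 0.228 against clone 1, with unchanged differences. Against the control it was also 0.0510 and 0.0906 without the first or the second control library and 0.0595 without clone 2 at passage 25, with differences of 0.51 to 0.63. Against clone 1 it was 0.0844 and 0.175 without the first or the second clone 1 library and 0.155 without clone 2 at passage 25.

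Xiap lies on the X chromosome (42059679 to 42109656, plus strand). The 601 X-linked genes tested had a median log2 difference of 0.13 in clone 2 minus control and 65.9% of them were above 0, beside -0.00 and 49.8% over all 15992 genes with a chromosome. Xist, the RNA that coats the inactive X, was at 21946 and 20013 in clone 2, at 154 and 144 in clone 1 and at 317 and 282 in control iPS, while the Y-linked Ddx3y was at 1.98 and 0.887 in clone 2 and at 1478 to 1785 in clone 1 and control iPS. Pre-iPS, with Xist at 16029.9 and 22076 and Ddx3y at 1.02 and 1.92, had Xiap values on either side of those of control iPS and clone 1. MEF had Xist at 52735 and 52989, Ddx3y at 359 and 387 and Xiap at 3664 and 3885. The part of the X chromosome in the Xiap difference was not tested.

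Between passages 5 and 25, Casp12 and Apaf1 rose, and each was higher in 4 of 4 pre-iPS and iPS lines. No member was called by limma or edgeR (1.69% of all genes called), 2 of 8 were higher at an adjusted p under 0.05 (3.31% of all genes), and 4 had an unadjusted p under 0.05. Casp12 was 1.53-fold higher at passage 25 (log2 0.61 ± 0.12 SE, adjusted p = 0.0239), by 1.46-fold in pre-iPS, 1.75 in control iPS, 1.67 in clone 1 and 1.29 in clone 2. Apaf1 was 1.23-fold higher (0.30 ± 0.07 SE, adjusted p = 0.0373), by 1.36-fold in pre-iPS, 1.08 in control iPS, 1.17 in clone 1 and 1.33 in clone 2.

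Casp2 (0.23 ± 0.07 SE, adjusted p = 0.0741) and Birc5 (0.25 ± 0.08 SE, adjusted p = 0.0864) were also higher in 4 of 4 lines without passing, although Casp2 passed under quantile normalization (0.28, adjusted p = 0.0422), and Casp6 was down in 4 of 4 (-0.09, adjusted p = 0.418). An exact test by sign flips within the 4 lines gave p = 0.125 for each of these 5 genes, the smallest it can give. Among the 3 iPS lines alone the adjusted p was 0.0923 for Casp12 and 0.153 for Apaf1. Without the first or the second control iPS library Casp12 had 0.55 with adjusted p of 0.0546 and 0.0578, without one or the other clone 1 library 0.140 and 0.146, and without one or the other pre-iPS library 0.0881 and 0.0907. Without any one library of pre-iPS, clone 1 or clone 2 the adjusted p of Apaf1 was 0.0997 to 0.149. Of the 6 fibroblast markers 0 passed the test for passage with limma or edgeR and 2 had an unadjusted p under 0.05 (Thy1 higher, Postn lower), with a median log2 difference of -0.03. Thy1 stood at 7.25 and then 11.1% of MEF in control iPS, 9.20 and 10.9% in clone 1, 8.07 and 9.80% in clone 2 and 7.86 and 8.08% in pre-iPS. Twist2 had normalized counts of 238 and 509 in control iPS, 394 and 431 in clone 1, 256 and 263 in clone 2 and 269 and 326 in pre-iPS, so that both were higher at passage 25 in 4 of 4 lines, like Casp12. Col1a1, Col1a2, Col3a1 and Postn were each lower at passage 25 in pre-iPS and both clones and higher in control iPS. The part of fibroblast RNA in the passage values was not tested. Casp4, the neighbour of Casp12, was also higher at passage 25 (0.79 ± 0.15 SE, adjusted p = 0.0237), with ratios of 1.28 in pre-iPS and 1.75 to 2.26 in the iPS lines.

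**Figure D5:**
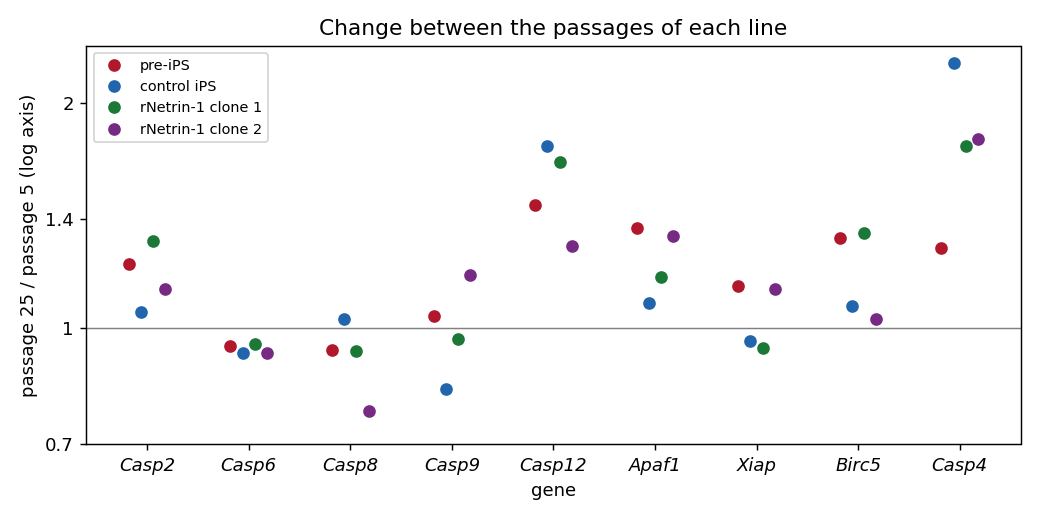
Ratio of the normalized count at passage 25 to that at passage 5 (log axis, line at 1) for the 8 genes and Casp4 in the pre-iPS and iPS lines. Casp12, Apaf1, Casp2, Birc5 and Casp4 lie above 1 in 4 of 4 lines, and Casp6 lies below 1 in 4 of 4.

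Levels were compared between members per kilobase of exon, from the union of GENCODE exons, as a description. In MEF Casp12 had 742 normalized counts per kilobase and Casp8 720.3, with overlapping libraries, ahead of Birc5 at 586, and Casp2 was last at 181. In the other 4 lines Birc5 was first at 1042 to 1292 per kilobase and Casp8 second at 539.9 to 775, and Casp12 was last at 55.3 to 77.8. Casp6 was the second lowest in each of them, at 126 to 149.8. Xiap and Apaf1 were close in MEF, at 399 and 409.6, and their libraries overlapped there when divided by length, while in clone 2 Xiap was at 502 and Apaf1 at 373.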

How the data were processed

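RNA was sequenced from 10 libraries, 2 for each of 5 lines, and grouped by the sample labels. The deposited signal values are edgeR pseudo-counts, gene counts equalized by the authors across libraries of different depth. Per the labels, the processing notes name mm10, FastQC, CASAVA 1.8.2, TopHat2 2.0.8b and HTSeq 0.5.3p9. The annotation used for counting is not given in the sources used here. The library kit selects poly(A) RNA and does not mark strand. Whole reads were recovered for 100% of the values, within 0.1 reads, and 1 read was worth 0.888 to 1.18 units.

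Genes had to reach 10 units in 2 or more libraries, which 17075 did. They were fitted with limma 3.58.1 in R 4.3.3 on log2(value + 1), by lmFit and trended eBayes, all 10 libraries in 1 model of line means, and p-values were adjusted after Benjamini and Hochberg. A log2 difference on this scale understates the change of low genes. For passage the model held the line as a block and left MEF out. Passage 25 minus 5 deviations of the lines correlated at 0.235 to 0.504 over genes, so the numbers in the labels pair the libraries, and the fit with passage as a block was the alternative for the line comparisons. MEF has other passages. Exact permutation tests of members, two-sided, exchanged libraries between lines or flipped signs within lines. The model was tested on simulated data. Alternatives were other pseudocounts and filters, quantile normalization, a fit to only the lines compared, leaving out each library, and edgeR 4.0.16 on the recovered reads, which was chosen after seeing the data. The members and gene lists were chosen with earlier results of these data known. The rule for named genes took all members and the other caspases and IAPs, some of which are not reported here, and of each other list up to 3 called genes per direction and comparison with MEF or pre-iPS. Cycs, Aven, Cradd, Diablo and Cflar, the markers Cd68 and Cd14, and Fas and Zfp42 in pre-iPS, were named after their values were seen. Gene positions and exon lengths are from GENCODE M21 and promoter windows from RefSeq, both on GRCm38.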

Additional observations from a re-analysis of the deposited data

Results flagged for a closer look

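Xiap differed between the rNetrin-1 derived clones in its difference from the control line. It was 0.60 higher on the log2 scale in clone 2 and -0.01 in clone 1, and the difference between them was 0.61 ± 0.10 SE (adjusted p = 0.0274 in the limma fit, clone 2 higher in 2 of 2 libraries). The adjusted p was 0.0222 with passage as a replicate block and 0.228 with only the lines compared in the fit. It was 0.0844 and 0.175 without the first or the second clone 1 library and 0.155 without clone 2 at passage 25. The X-linked genes tested had a median of 0.16 in clone 2 minus clone 1 and 69.1% of them were above 0, and the part of the X chromosome in the Xiap value was not tested.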

How the results depend on the processing

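The numbers of members called at 2-fold were unchanged in every alternative but one. In pre-iPS minus MEF, leaving out single libraries gave 1 to 2 members called, the 2 without pre-iPS at passage 5, where Birc5 joined Casp12. Differences that turned sign were small: under quantile normalization Xiap in MEF minus iPS was -0.18, and in pre-iPS minus iPS Casp6 was -0.005 and Casp9 -0.04. Leaving out single libraries, Casp9 in pre-iPS minus iPS ranged from -0.01 to 0.08, being -0.002 without clone 2 at passage 5 and -0.01 without control iPS at passage 25, and Apaf1 from -0.33 to 0.10, the last without pre-iPS at passage 5. The cause was not tested. Of the single-gene values under other settings, 414 kept direction and side of the threshold, 57 kept direction and lost the threshold, and 11 gained it. Passage as a replicate block moved Casp12 (adjusted p = 0.0450) and Birc5 (adjusted p = 0.0486) in pre-iPS minus iPS past the threshold and changed no other call of a member, and without the line as a block Casp12 and Apaf1 lost it for passage (adjusted p = 0.315 and 0.459). Each of the 57 was of a difference under 2-fold.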

Other observations

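Clone 2 differed from the other iPS lines along chromosome 8 as well as the X chromosome, among 19 autosomes and the X. The 808 genes tested on chromosome 8 had a median log2 difference of 0.18 in clone 2 minus control, with 71.9% above 0, and 0.17 in clone 2 minus clone 1, with 69.7% above 0. The next autosome, chromosome 7, had 0.02 in both. In clone 1 minus control chromosome 8 had -0.01. The X had -0.08 there with 39.4% above 0, the opposite sign to its 0.13 in clone 2 minus control. These are descriptions over genes, which are not independent replicates, and no cause was tested.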
